A study of Canis lupus familiaris with 18 samples.

Results

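The response of canine fat to free feeding was measured in each dog as the mean of its subcutaneous and gonadal log2 values, probe set by probe set, which gave 9 dog means from all 18 of the series' 18 arrays. Dogs were matched across the depots by the animal number in their titles, and 5 dogs fed ad libitum (numbers 2, 5, 6, 7 and 8) were compared with 4 control dogs (numbers 1, 3, 4 and 9). All were intact female beagles, 4 years of age. They were assigned to their feeding at random and all ate Purina Pro Plan Performance Formula. Control dogs received the amount that held their baseline body weight and are called lean in the series record, and the ad libitum dogs are called obese. Both fat depots were sampled at 24 weeks after an overnight fast, and no allele, drug or other agent is named for any group. The values are expression signals on a log2 scale from Affymetrix canine arrays, where several short probes that match 1 transcript are read together as a probe set. Of 43035 probe sets, 21484 reached log2 4, taken here as the floor of measurable signal, in at least 4 of the 18 arrays and were tested. They represent 8656 named genes, each read from its probe set with the highest mean. Where values are given dog by dog, control dogs stand in the order 1, 3, 4 and 9 and ad libitum dogs in the order 2, 5, 6, 7 and 8.

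White fat stores surplus energy as triglyceride in adipocytes, which take up fatty acids, make new ones from glucose and secrete hormones such as leptin in proportion to their lipid load. Subcutaneous and visceral depots draw on different progenitors and keep different developmental transcription programmes, so a feeding effect may be common to both or belong to 1 of them. In an average over the depots an effect of equal size in both keeps its size while the noise of the depots is averaged, and an effect of 1 depot is diluted.

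Adipocyte genes (ADIPOQ, LEP, PLIN and others) were present in every array, with ADIPOQ between log2 13.83 and 15.20 in subcutaneous and between 14.08 and 15.56 in gonadal fat. Transcripts of other tissues stood out in 4 arrays. The skeletal muscle list lay 5.59 and 3.94 log2 units above the depot median in the subcutaneous samples of control dogs 3 and 4, and 5.61 above it in the gonadal sample of ad libitum dog 2. Ciliated epithelium genes lay 3.72 above it in the gonadal sample of ad libitum dog 6 and 2.17 in the subcutaneous sample of dog 4. In that sample of dog 4 the mesothelium list also lay 2.53 above the depot median. The subcutaneous sample of ad libitum dog 5 was high in macrophage (1.48) and lymphocyte (1.24) genes. The 3' to 5' difference of actin, a measure of RNA length, was 3.83 ± 0.70 in control and 3.40 ± 0.68 in ad libitum dog means (SD, n = 4 and 5), and the difference of -0.44 had p = 0.365 in a two-sided exact permutation test over all regroupings of the 9 dogs. Because each sample is a piece of bulk tissue, fewer cells of a type and less RNA per cell cannot be told apart in any value given here.

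Averaged over both depots, 13 of the 15 genes with the smallest p values stood higher in ad libitum dogs. In order of p, the 15 include SPPL2A (membrane proteolysis), LOX (matrix cross-linking), HMGB3 (chromatin), PHKA2 (glycogen breakdown) and ELOVL6 (fatty acid elongation). These are examples, and UPB1, APEX2 and FAM20A lay between LOX and HMGB3. No probe set passed a Benjamini-Hochberg adjusted p of 0.05 in the limma fit to the 9 dog means (0 of 21484, 0% called), and the smallest adjusted p was 0.157. At an unadjusted p under 0.05 there were 3018 probe sets, 14% of those tested, of which 2040 (9.5%) stood higher and 978 (4.55%) lower in ad libitum dogs. Quantile normalization of the deposited columns changed this split to 1555 higher and 1332 lower, and centring each array on its median to 1573 and 1380. With 9 independent dogs the p values rest on the spread between animals.

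Since nothing passed in the dog means, the number of probe sets that passed there and in neither depot was also 0. The subcutaneous contrast of the 18-array fit called 506 of 21484 probe sets (2.36%) and had 5085 at an unadjusted p under 0.05 (23.7%). That count depended on single dogs, ranging from 3 without control dog 1 to 2703 without ad libitum dog 5. The gonadal contrast called 0, with 531 at an unadjusted p under 0.05 (2.47%). The difference between the depots' responses, tested as an interaction, called 0 as well, with 1344 at an unadjusted p under 0.05 (6.26%), so no probe set was shown to respond differently in the depots. Fitted on its own 9 arrays, subcutaneous fat called 60 probe sets (0.279%), and gonadal fat had 385 at an unadjusted p under 0.05 (1.79%).

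The size of the differences and of the noise gives the scale of this result. The median absolute difference between the feeding groups was 0.32 log2 units in subcutaneous fat, 0.15 in gonadal fat and 0.20 in the dog means. The median SD between dogs of a feeding group was 0.34 in subcutaneous fat, 0.40 in gonadal fat and 0.29 in the dog means. If the depots of a dog had varied without relation, the SD of the mean would have been 0.27. Deviations of a dog from its group mean in the 2 depots, correlated across probe sets, ran from -0.05 in dog 4 to 0.53 in dog 2, and probe sets are not independent points.

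FAM20A, a pseudokinase partner of the secretory pathway kinase FAM20C, AADAT, an aminotransferase of lysine and kynurenine breakdown, and HMGB3, a chromatin protein of the high mobility group, differed in the same direction in both depots and passed adjustment in neither. Each depot did show them before adjustment. Their unadjusted limma p values were, in that order, 0.00913, 0.00279 and 0.00156 in subcutaneous fat and 8.6e-05, 0.00122 and 0.00235 in gonadal fat. These genes held the 3 probe sets that passed adjustment in the average and in neither depot when the 18 arrays were fitted as if the 2 arrays of a dog were separate samples. That fit called 41 probe sets for the average (0.191%), 36 higher and 5 lower. With the dog as a random block (consensus correlation 0.168) it called 0, with 3315 at an unadjusted p under 0.05 (15.4%) and a smallest adjusted p of 0.055. With values below the floor set to it, the fit without a block called 23 for the average, and each of them also passed in a depot. FAM20A then passed in subcutaneous fat (limma, adjusted p = 0.0462), and AADAT and this HMGB3 probe set each had an adjusted p of 0.0501 for the average.

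The other probe sets called without the block also passed in subcutaneous fat. Of the 41, 31 carry 1 gene symbol, and NPR3, ECI2 and HMGB3 are each held by several of them. NNAT, the imprinted gene neuronatin, differed by 2.22 ± 0.40 in that fit, SLC2A9, a urate transporter that lay below the floor in 4 arrays, by 1.03 ± 0.18, and NNT, the mitochondrial transhydrogenase that makes NADPH, by 0.96 ± 0.16. ANAPC4, a subunit of the anaphase-promoting complex, differed by 0.78 ± 0.12, MRPL15, of the mitochondrial ribosome, by 0.97 ± 0.16 and ZMPSTE24, which matures lamin A, by 0.63 ± 0.12. In the dog means the adjusted p was 0.157 for ANAPC4 and NNT and 0.233 for NNAT. These probe sets were named after their values were seen, and some are not the probe set that represents their gene elsewhere.

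The FAM20A dog means were 4.72, 3.71, 5.04 and 4.78 in control dogs 1, 3, 4 and 9. In ad libitum dogs 2, 5, 6, 7 and 8 they were 6.00, 6.41, 6.39, 5.83 and 6.11. All 5 ad libitum dogs lay above all 4 control dogs. The difference was 1.59 ± 0.26 (log2, ± standard error), with an adjusted p of 0.227 in the dog means, 0.0447 in the fit without a block and 0.0884 with the block. It was 2.02 ± 0.39 in gonadal fat, where the control mean of 3.50 lay below the floor, and 1.16 ± 0.39 in subcutaneous fat (adjusted p = 0.748 for the difference between depots in limma, called the interaction from here on). The gonadal values of control dogs 3 and 9, 2.48 and 2.90, lay below the floor, and with such values set to the floor the average difference was 1.26 ± 0.20, so that ad libitum dogs were at least 2.39-fold higher. Without the 4 arrays that carried muscle or ciliated-cell transcripts it was 1.45 ± 0.41.

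AADAT lay at 7.25, 6.87, 6.61 and 6.94 in the control dogs. The ad libitum dogs had 5.56, 6.19, 5.55, 6.30 and 6.10. The groups did not overlap, and the lowest control dog, number 4, lay above the highest ad libitum dog, number 7. The difference of -0.98 ± 0.20 was composed of -0.92 in subcutaneous and -1.03 in gonadal fat (interaction adjusted p = 0.954), and the adjusted p of the average was 0.228 in the dog means, 0.0488 without the block and 0.101 with it. Without the 4 arrays it was -1.14 ± 0.19.

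HMGB3 measured 6.39, 6.44, 6.72 and 7.30 in control dogs. It measured 8.36, 7.85, 8.72, 7.74 and 8.24 in ad libitum dogs. Ad libitum dogs were again higher without overlap, by 1.47 ± 0.25, with 1.51 in subcutaneous and 1.43 in gonadal fat (interaction adjusted p = 0.978). The adjusted p was 0.227 in the dog means, 0.0488 without the block and 0.11 with it. A second HMGB3 probe set differed by 1.75 ± 0.23 in the 18-array fit without a block and had an adjusted p of 0.00837 in subcutaneous fat, so the gene itself was not limited to the average.

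**Figure D1:**
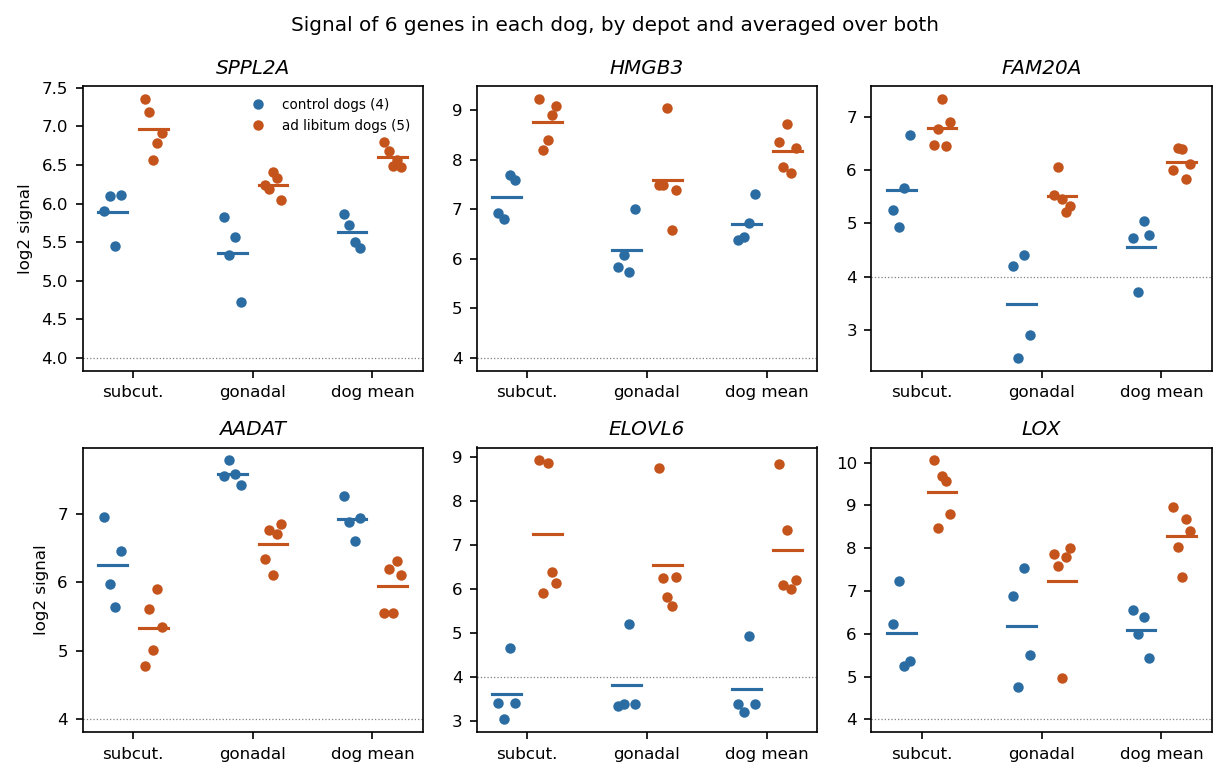
Log2 signal of 6 genes in each dog, with control dogs (n = 4) in blue and ad libitum dogs (n = 5) in orange, for subcutaneous fat, gonadal fat and the mean of both, and a bar at each group mean. The dotted line marks the floor of log2 4, and the feeding groups of the dog means do not overlap in any of the 6 genes, while those of LOX and HMGB3 overlap in gonadal fat and those of FAM20A and AADAT in subcutaneous fat.

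Differences of nearly equal size in both depots were also seen for SPPL2A, an intramembrane protease that cleaves type II membrane proteins. Its dog means were 5.87, 5.72, 5.51 and 5.42 in control dogs. They were 6.80, 6.69, 6.49, 6.56 and 6.48 in ad libitum dogs. The groups were separated in the average and in each depot. The difference of 0.97 ± 0.13 had the smallest p of all named genes (limma, adjusted p = 0.157) and came from 1.07 ± 0.21 in subcutaneous and 0.88 ± 0.21 in gonadal fat (interaction adjusted p = 0.882). A second SPPL2A probe set had the same direction. In the subcutaneous fit SPPL2A passed with an adjusted p of 0.0245, so it was not particular to the average.

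ELOVL6, which lengthens palmitate to stearate, had control values of 3.38, 3.20, 4.92 and 3.39. The ad libitum dogs had 8.83, 6.08, 7.33, 5.99 and 6.19. In 3 of 4 control dogs the gene lay below the floor, and control dog 4 stood apart from them. The fitted difference was 3.16 ± 0.62, and ad libitum dogs were at least 6.3-fold higher with values below the floor set to it in each array. It measured 3.62 in subcutaneous and 2.71 in gonadal fat (interaction adjusted p = 0.828), and ELOVL6 was separated in each depot. PNPLA3, a lipid droplet acyltransferase and lipase that is induced with fatty acid synthesis, differed by 3.44 ± 0.71 in the dog means (adjusted p = 0.227), by 4.41 in subcutaneous and by 2.48 in gonadal fat.

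PHKA2, the regulatory subunit of the phosphorylase kinase that starts glycogen breakdown, was lower in ad libitum dogs. Control dogs had 8.06, 8.56, 8.44 and 8.28. Ad libitum dogs had 6.81, 7.72, 7.57, 7.18 and 7.13. The groups did not overlap and differed by -1.05 ± 0.20, with -1.10 and -1.01 in the subcutaneous and gonadal depots (interaction adjusted p = 0.97).

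UPB1, the last enzyme of pyrimidine breakdown, stood 0.82 ± 0.13 higher, and the control dogs lay close together at 4.33, 4.54, 4.45 and 4.52 against 5.45, 5.17, 5.45, 5.35 and 4.98. PTGR2, a prostaglandin reductase, stood 0.64 ± 0.12 higher, from 0.73 in subcutaneous and 0.54 in gonadal fat. The interaction adjusted p was 0.912 for UPB1 and 0.881 for PTGR2, and a p of this size does not show that the responses were equal. CCNE2, a cyclin of S-phase entry, stood 0.87 lower (-0.87 ± 0.18), with -0.93 in subcutaneous fat, where the ad libitum mean lay below the floor, and -0.82 in gonadal fat. OAS1, an interferon-induced sensor of double-stranded RNA, stood 0.91 ± 0.21 higher, with 0.89 and 0.93. Neither passed in the dog means (adjusted p = 0.227 and 0.237), and the interferon list as a whole had 1 of 22 members higher at an unadjusted p under 0.05, with a median difference of 0.06 that turned negative without dog 1, 3 or 5.

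The remaining 8 of the 15 genes with the smallest p leaned on subcutaneous fat. LOX, the enzyme that cross-links collagen and elastin, had dog means of 6.55, 6.00, 6.40 and 5.44 in control dogs. In ad libitum dogs they were 8.96, 8.03, 7.34, 8.68 and 8.40. The difference was 2.18 ± 0.34, or 4.54-fold, but it was 3.29 ± 0.66 in subcutaneous fat (adjusted p = 0.0245) and 1.07 ± 0.66 in gonadal fat, where ad libitum dog 6 at 4.98 lay among the controls (interaction adjusted p = 0.748). In the fit with the block and without the 4 arrays with foreign transcripts, the average difference of LOX was 2.62 ± 0.46. Those arrays include the gonadal array of dog 6.

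NCEH1, a cholesterol ester hydrolase, differed by 0.91 ± 0.16 on average, by 1.48 in subcutaneous and by 0.35 in gonadal fat. IMPA1, which releases free inositol, differed by 0.82 ± 0.15, from 1.41 and 0.24. APEX2, a DNA repair nuclease, differed by 1.45 ± 0.23, from 2.15 and 0.76. The same lean held for SIRT5, a mitochondrial deacylase (0.63 ± 0.12), HIGD1A, a protein of the mitochondrial inner membrane (0.84 ± 0.16), and MID1, a ubiquitin ligase whose control mean lay below the floor (0.62 ± 0.12, or 0.30 with values below the floor set to it). EXOSC7, a subunit of the RNA exosome, was the only other gene of the 15 that stood lower, at -0.64 ± 0.12. The interaction adjusted p was 0.748 for each of these 7 genes, so that their lean to subcutaneous fat was not shown by test.

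**Figure D2:**
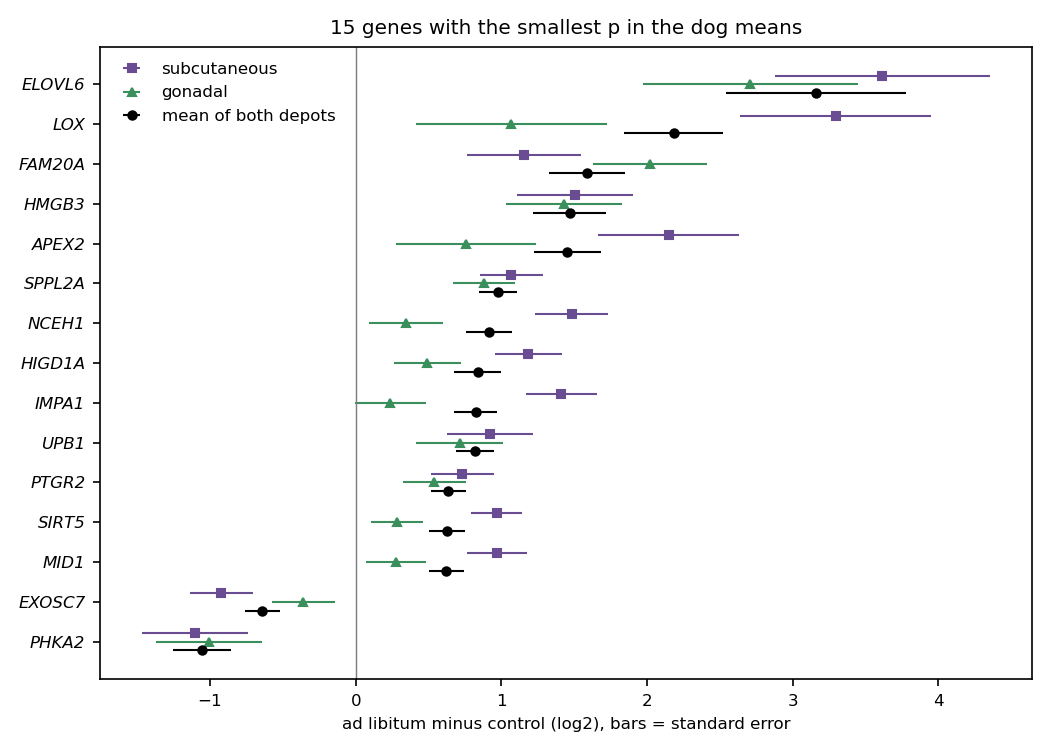
Ad libitum minus control difference (log2) with its standard error for the 15 genes of smallest p in the 9 dog means, in subcutaneous fat (squares), gonadal fat (triangles) and the mean of both (circles). FAM20A is the only one of the 15 with a larger gonadal (2.02) than subcutaneous (1.16) difference, and SPPL2A, HMGB3 and PHKA2 have nearly equal differences in both.

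Counting dogs in place of standard errors gave a set that the depots share by construction. The 5 ad libitum and 4 control dog means did not overlap for 1131 of 21484 probe sets (5.26%) and 441 of 8656 genes (5.09%). In subcutaneous fat alone there was no overlap for 2180 probe sets (10.1%), and in gonadal fat alone for 165 (0.768%). Separation in both depots in the same direction held for 22 probe sets (0.102%), 10 higher and 12 lower, or 9 genes (0.104%). The 4 genes higher in ad libitum dogs were SPPL2A, ELOVL6, C1D and LSM8. The 5 lower ones were LOC607467, FUT10, LRP10, NMNAT1 and TBC1D17.

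C1D, a cofactor of the nuclear RNA exosome, varied little, with 8.96, 8.89, 8.91 and 8.94 in control dogs and 9.58, 9.17, 9.47, 9.36 and 9.30 in ad libitum dogs. Its difference was 0.45 ± 0.11. LSM8, a protein of the complex that binds U6 small nuclear RNA, lay between 11.39 and 11.55 in control dogs and between 11.66 and 11.96 in ad libitum dogs, a difference of 0.36 ± 0.10. Both are RNA-processing proteins with higher values in every ad libitum dog of each depot, and both had a smaller gonadal difference, 0.23 for C1D and 0.15 for LSM8, than a subcutaneous one, 0.67 and 0.56.

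NMNAT1, the nuclear enzyme of NAD synthesis, had 7.14, 7.20, 7.13 and 7.09 in control dogs and 6.80, 6.77, 6.86, 6.72 and 6.94 in ad libitum dogs. TBC1D17, a GTPase-activating protein for Rab proteins, had 9.24, 9.28, 9.14 and 9.30 against 8.91, 8.98, 9.04, 9.01 and 8.83. Their differences of -0.32 ± 0.09 and -0.29 ± 0.10 were small, and they were the 2 of the 9 genes whose gonadal difference (-0.35 and -0.30) was not smaller in size than the subcutaneous one (-0.30 and -0.27).

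LRP10, a sorting receptor of the lipoprotein receptor family, stood lower by 0.39 (-0.39 ± 0.11) and FUT10, a fucosyltransferase, by 0.82 (-0.82 ± 0.21). LOC607467, which RefSeq lists as a V segment, a variable piece of an antigen receptor gene, had the largest difference of the lower genes, -1.90 ± 0.39. Its dog means were 9.91, 10.25, 11.10 and 10.20 in control dogs. They were 9.17, 9.16, 8.56, 8.03 and 7.43 in ad libitum dogs. The controls were higher in each depot, with differences of -2.76 in subcutaneous and -1.04 in gonadal fat. JCHAIN, the joining chain of secreted antibodies, differed by -0.34 ± 0.28, and probe sets of V segments can share sequence with one another, so the LOC607467 signal is uncertain as to gene.

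Leptin and the receptors of natriuretic peptides, endocrine genes of the adipocyte, were separated between the feeding groups in the dog means. LEP values were 10.03, 7.36, 10.54 and 9.19 in control dogs. They were 12.11, 10.97, 10.85, 11.69 and 11.81 in ad libitum dogs. The groups did not overlap, and control dog 3 was lowest. The difference was 2.20 ± 0.59 (adjusted p = 0.249), with 2.71 ± 0.67 in subcutaneous and 1.69 ± 0.67 in gonadal fat, and it was 1.56 without dog 3. ADIPOQ, adiponectin, differed by 0.21 ± 0.27 and by -0.0063 without dog 3. CCL2, the monocyte chemokine, differed by -0.12 ± 0.47, with both signs when single dogs were left out. TNF and IL6 did not pass the filter on low values (0 of 3 and 0 of 1 probe sets).

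NPR3, the clearance receptor that removes natriuretic peptides, had 7.67, 5.91, 7.00 and 6.86 in control dogs. It had 10.25, 8.68, 7.85, 9.57 and 10.23 in ad libitum dogs. The lowest ad libitum dog, number 6, was just above the highest control dog, number 1, and the difference was 2.46 ± 0.54 (adjusted p = 0.237), 3.34 in subcutaneous and 1.58 in gonadal fat. NPR2, the guanylyl cyclase receptor of C-type natriuretic peptide, stood 0.59 lower (-0.59 ± 0.15), with -0.56 in subcutaneous and -0.63 in gonadal fat. The NPR2 values were 9.23, 9.38, 9.08 and 9.25 in control dogs and 8.37, 9.01, 8.38, 8.73 and 8.73 in ad libitum dogs. The feeding groups of the dog means did not overlap for either receptor, with NPR3 higher and NPR2 lower in ad libitum dogs, and neither passed adjustment. In the list of 17 measured adipokines and endocrine receptors, 3 stood higher and 1 lower at an unadjusted p under 0.05, and the list median of -0.0076 took both signs when single dogs were left out.

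Lists of genes by function were described by the number of measured members with an unadjusted p under 0.05 and by their median, against 8.77% of all 8656 genes higher, 4.4% lower and a median of 0.0050. Among 30 measured genes that mark adipocytes or store lipid, 12 (40%) stood higher, 0 lower, and 29 had a positive difference, with a median of 0.62. That median lies between 1.09 in subcutaneous and 0.17 in gonadal fat. Members include GPAM (2.27 ± 0.61), the first acyltransferase of glycerolipid synthesis, DGAT2 (1.66 ± 0.47), which makes triglyceride, ACSL1 (1.09 ± 0.27), which activates fatty acids, and PCK1 (1.37 ± 0.41), of glyceroneogenesis.

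The level of that list, centred for each gene, was 0.0028, -1.18, -0.154 and -0.11 in the control dogs. In the ad libitum dogs it was 0.897, -0.391, -0.119, 0.775 and 0.593. Dogs 2, 7 and 8 were above every control dog, while ad libitum dogs 5 and 6 lay among the controls and control dog 3 lay far below all. The gonadal array of dog 6, which carried ciliated-cell transcripts, had this list 1.44 below the depot median, and the subcutaneous array of dog 5, which carried immune transcripts, 0.676 below it. Control arrays were low as well. The subcutaneous arrays of dogs 3 and 4, which carried muscle transcripts, lay 1.22 and 0.776 below the depot median. The gonadal array of control dog 3, which did not stand out in skeletal muscle or ciliated-cell transcripts, lay 1.5 below it. It had the highest gonadal values of the smooth muscle genes ACTA2 (14.96), MYL9 (14.68) and PLN (10.94). The part of these arrays in the list difference was not tested. Without dog 3 the median difference was 0.41, without dog 5 it was 0.79, and without the 4 arrays 0.59.

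Fatty acid synthesis had 4 of 15 members higher, 0 lower and a median of 0.48, which was 0.14 without dog 3, 0.30 without dog 2 and 0.25 without the 4 arrays. SREBF1, the transcription factor of lipogenesis, differed by 1.10 ± 0.39, with 1.17 in subcutaneous and 1.03 in gonadal fat. It lay below the floor in 3 arrays, and with those values set to it the depots had 1.20 and 0.74. Without the 4 arrays the average difference of SREBF1 was 1.10 ± 0.55. Cholesterol synthesis had 4 of 16 higher and a median of 0.26, led by MSMO1 (0.59 ± 0.13) and CYP51A1 (0.89 ± 0.29), and the median was 0.11 without dog 2 and 0.15 without dog 3 or without the 4 arrays. Lipolysis and fatty acid oxidation had 9 of 27 higher, 1 lower and a median of 0.32, which was 0.16 without dog 3 and 0.19 without dog 2. LIPE, hormone-sensitive lipase, stood 1.43 ± 0.43 higher and ECI2, an isomerase of unsaturated fatty acid oxidation, 1.18 ± 0.24 higher, while EHHADH, the peroxisomal bifunctional enzyme, stood 0.36 lower (-0.36 ± 0.14).

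The proteasome, which degrades ubiquitin-tagged proteins, had 28 of 28 measured subunits positive in the dog means, 11 (39.3%) of them at an unadjusted p under 0.05, and a median of 0.25. PSMA4 differed by 0.55 ± 0.14, PSMD14 by 0.39 ± 0.10 and PSMA3 by 0.33 ± 0.09. The subcutaneous median was 0.50, with 6 members past adjustment, and the gonadal median was 0.03, with 17 of 28 positive. The list level in the dog means was -0.052, -0.239, -0.107 and -0.158 in control dogs against 0.304, -0.118, 0.103, 0.159 and 0.142 in ad libitum dogs, so that dog 5 alone lay among the controls. Without the 4 arrays the median was 0.18, and it ran from 0.19 to 0.34 when single dogs were left out.

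Oxidative phosphorylation had 56 of 57 members positive and a median of 0.24, but 3 (5.26%) at an unadjusted p under 0.05, which is below the share of all genes. Here the subcutaneous median was 0.49 and the gonadal median -0.0064, and without dog 2 the median of the dog means was 0.094. The citric acid cycle list had 4 of 22 higher, with DLAT, a subunit of pyruvate dehydrogenase, at 0.95 ± 0.27. Mitochondrial ribosome genes had 3 of 57 higher (5.26%, also below the share of all genes). Their median was 0.08, which was 0.0034 without dog 2 and 0.13 without dog 5. Glycolysis and the pentose phosphate pathway had 3 of 20 higher, among them TKT (0.87 ± 0.25) and PGD (0.70 ± 0.26) of the pentose phosphate pathway. Amino acid catabolism had 2 higher and 2 lower of 29 (6.9% each, against 8.77% and 4.4% of all genes). Its lower members were AADAT and CDO1, which oxidises cysteine, at -1.82 ± 0.41, and CDO1 leaned on subcutaneous fat (-3.10 against -0.54 in gonadal fat, interaction adjusted p = 0.748).

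Glutathione and antioxidant enzymes had 9 of 26 members higher (34.6%), 1 lower and a median of 0.33. NQO1, a quinone reductase, stood 0.54 ± 0.16 higher, from 0.48 in subcutaneous and 0.59 in gonadal fat, and its unadjusted p was above 0.05 in each depot. Catalase (CAT) differed by 0.47 ± 0.18, the mitochondrial peroxidase PRDX3 by 0.70 ± 0.22 and glutathione reductase (GSR) by 0.60 ± 0.21. The lower member was GPX3, the secreted glutathione peroxidase, at -1.37 ± 0.39. The list level was -0.075, -0.452, -0.037 and -0.084 in control dogs and 0.337, -0.040, 0.045, 0.144 and 0.089 in ad libitum dogs. Control dog 3 was lowest and dog 5 lay among the controls, and without dog 3 the median was 0.19.

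**Figure D3:**
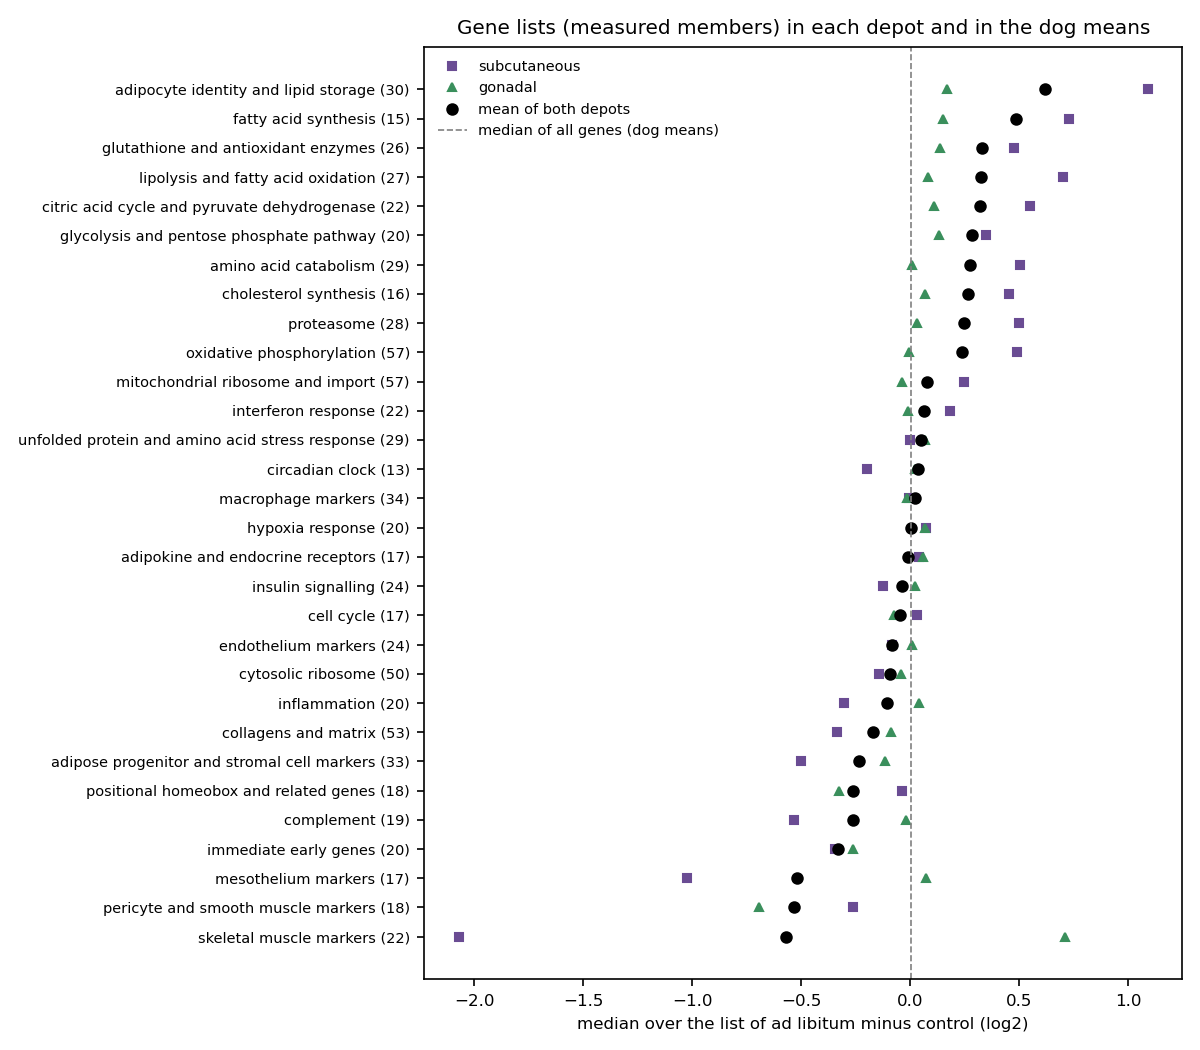
Median over each gene list of the ad libitum minus control difference (log2) in subcutaneous fat (squares), gonadal fat (triangles) and the dog means (circles), for the 30 lists with at least 5 measured members, whose number stands in brackets. The adipocyte list has 1.09, 0.17 and 0.62, and the positional homeobox list is one of those whose gonadal median (-0.33) is farther from 0 than its subcutaneous one (-0.04).

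Among the lists that stood lower, the share of members lower at an unadjusted p under 0.05 ran from 0% to 25%, against 4.4% of all genes. Pericyte and smooth muscle markers had a median of -0.53 in the dog means, with -0.26 in subcutaneous and -0.70 in gonadal fat, and 0 of 18 at that p. Their range over dogs was wide, from -0.0999 to 0.794 in control and from -0.727 to 0.37 in ad libitum dogs, and without dog 3 the median was -0.28. ACTA2, smooth muscle actin, differed by -0.74 ± 0.33.

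Positional homeobox and related genes, which keep the body position of a depot, had 3 of 18 lower (16.7%), 0 higher and a median of -0.26, and leaving out single dogs moved it between -0.34 and -0.25. The gonadal median was -0.33 and the subcutaneous one -0.04. HOXB4 differed by -0.55 ± 0.19, HOXB7 by -0.43 ± 0.18 and NR2F2, a nuclear receptor, by -0.48 ± 0.20. Unlike the list medians, HOXB4 (-0.87 in subcutaneous, -0.24 in gonadal fat) and NR2F2 (-0.60 and -0.37) differed more in subcutaneous fat. HOXB7 had -0.37 in subcutaneous and -0.50 in gonadal fat. The list level was 0.035, 0.136, 0.182 and 0.091 in control dogs and -0.286, 0.018, -0.16, -0.146 and -0.090 in ad libitum dogs, and the groups did not overlap. Without the 4 arrays the median was -0.26.

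Cytosolic ribosome genes had positive differences in 5 of 50, with a median of -0.09. At an unadjusted p under 0.05, 3 of 50 (6%) were lower, RPS16, RPS4X and RPS19, near the 4.4% of all genes. The RPS4X probe set read near the floor, with dog means averaging 4.93 in control and 4.56 in ad libitum dogs. Immediate early genes, which are switched on soon after a stimulus, had a median of -0.33 and 2 of 20 lower, KLF6 (-0.56 ± 0.16) and JUN (-0.92 ± 0.35), and the median was -0.13 without control dog 9 and -0.21 without ad libitum dog 7. Adipose progenitor markers had 4 of 33 lower and 2 higher with a median of -0.23, which was -0.15 without dog 2 and -0.40 without dog 5. Collagens and matrix had 4 of 53 higher (7.55%) and 3 lower (5.66%), near the shares of all genes. Their median was -0.17, which was -0.091 without dog 2, -0.26 without dog 5 and -0.083 without the 4 arrays. Complement had 2 of 19 in each direction.

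Of 9 lists that mark other cell types, the adipose progenitor and pericyte lists included, 8 had a negative median in the dog means, while adipocyte genes had a positive one. Centring the arrays made it 9 of 9, leaving out the 4 arrays 6 of 9, and leaving out single dogs between 6 and 9. At an unadjusted p under 0.05, 4 of 33 adipose progenitor markers (12.1%) and 1 of 4 lymphocyte markers (25%) were lower, against 4.4% of all genes. The share lower was 5.88% for mesothelium, 4.55% for skeletal muscle and 2.94% for macrophage markers. It was 0 for the endothelium, pericyte, ciliated and erythrocyte lists. Their part in the differences of other lists was not tested. Macrophage markers had a median of 0.02, of both signs when single dogs were left out, with 2 of 34 higher, MSR1 (1.43 ± 0.37) and SPP1 (1.23 ± 0.50), and 1 lower, CD9. The macrophage, circadian and hypoxia lists changed sign when arrays were centred. Skeletal muscle markers had a median of -0.57, with -2.07 in subcutaneous and 0.71 in gonadal fat, and the median was 0.02 without the 4 arrays and ran from -1.18 without dog 2 to -0.027 without dog 3. Mesothelium markers had a median of -0.52, which was -0.25 without the 4 arrays and -0.16 without dog 4. Endothelium markers had 0 of 24 at an unadjusted p under 0.05 and a median of -0.08, which ran from -0.18 without dog 3 to 0.039 without dog 6 and was also above 0 without dog 9. Lymphocyte markers had 1 of 4 measured genes lower, LTB, and a median of -0.38, which was -0.25 without dog 8. Ciliated epithelium markers had 0 of 4 in either direction and a median of -0.25, which ran from -0.58 without dog 6 to 0.13 without dog 4. Erythrocyte and platelet markers had 0 of 2 and a median of -0.08, with both signs when single dogs were left out. Inflammation genes had 2 of 20 lower, NFKB1 and CCL19, and insulin signalling genes 2 of 24 higher, GRB14 and PDPK1. CCL19 lay below the floor in 13 arrays, with both gonadal group means below it. With such values set to the floor its gonadal difference was 0. Cell cycle genes had 1 of 17 in each direction, CCNE2 and PCNA. The circadian list had 1 of 13 higher, NR1D2, and the hypoxia list 1 of 20 in each direction, PDK1 and ANKRD37. The shares higher were 5.88% for macrophage, 8.33% for insulin signalling, 5.88% for cell cycle, 7.69% for circadian and 5% for hypoxia genes. All lay below the 8.77% of all genes. Stress response genes of the unfolded protein and amino acid pathways had 4 of 29 higher and 1 lower, XBP1 (-0.37 ± 0.12).

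**Figure D4:**
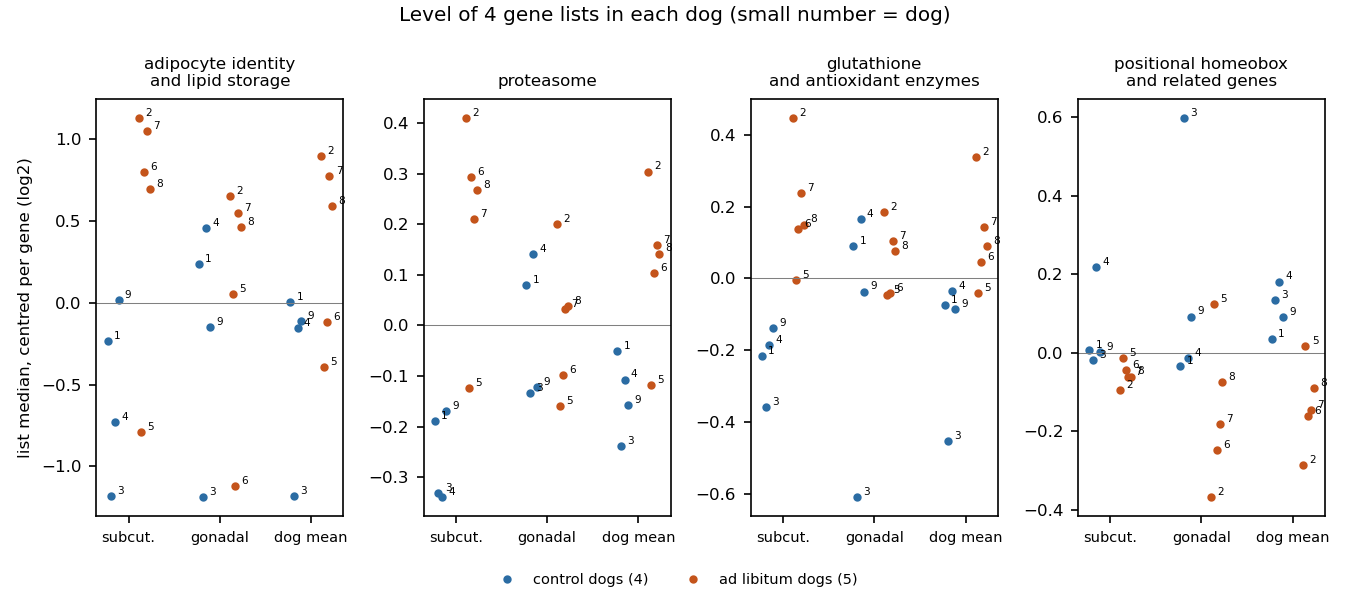
Median level of 4 gene lists in each dog (log2, centred for each gene), by depot and for the dog mean, with control dogs in blue, ad libitum dogs in orange and the dog number beside each point. In the dog means ad libitum dog 5 lies at -0.391 for adipocyte genes and -0.118 for the proteasome, among the control dogs, and the homeobox groups are separated.

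Genes that reached an unadjusted p under 0.05 in the dog means and in neither depot were chosen after their values were seen and carry no adjusted support. There were 387 such probe sets (1.8% of 21484), 245 higher and 142 lower, and 129 genes (1.49% of 8656), 76 higher and 53 lower. When each depot was fitted on its own 9 arrays there were 382 probe sets and 128 genes. For comparison, 2494 of the 3018 probe sets also had an unadjusted p under 0.05 in subcutaneous fat, 320 in gonadal fat and 183 in both, and the depots contribute to the mean by construction.

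The smallest p among these genes belonged to DYNC2LI1, a light intermediate chain of the dynein motor of ciliary transport. Its dog means were 6.26, 6.90, 7.28 and 6.73 in control dogs. They were 7.36, 7.55, 8.44, 7.46 and 7.72 in ad libitum dogs, a difference of 0.92 ± 0.26 (adjusted p = 0.256). Dog 6, whose gonadal array carried ciliated-cell transcripts, was the highest, and without the 4 arrays the difference was 0.96 ± 0.27. The interaction adjusted p was 0.977, with 0.96 in subcutaneous and 0.87 in gonadal fat.

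NQO1 had 6.31, 6.25, 6.39 and 6.18 in control dogs and 6.44, 6.86, 7.24, 6.79 and 6.75 in ad libitum dogs, and the controls lay close together, just below the lowest ad libitum dog. Several of these genes act in membrane traffic. GOLGA2, a matrix protein of the Golgi, stood 0.39 ± 0.11 higher, DENND4C, an activator of Rab proteins, 0.61 ± 0.18, COG3, a tether of Golgi vesicles, 0.51 ± 0.16, and DNM2, dynamin 2 of vesicle scission, 0.52 ± 0.17. Without the 4 arrays that carried muscle or ciliated-cell transcripts the differences were, in that order, 0.38 ± 0.23, 0.93 ± 0.30, 0.63 ± 0.24 and 0.32 ± 0.26. The genes were picked by p and not as a list, so no count of traffic genes is given. SLC17A5, the lysosomal sialic acid exporter, stood 0.33 ± 0.11 higher and SLC41A2, a magnesium transporter, 0.51 ± 0.16.

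Among the lower genes of this kind TSPAN2, a tetraspanin, differed by -1.06 ± 0.37, ENOSF1 by -0.57 ± 0.20, BCAS3 by -0.28 ± 0.10 and RCE1, the protease that trims prenylated proteins, by -0.46 ± 0.17. CD5L, a protein secreted by macrophages, had dog means of 4.36, 2.75, 4.20 and 4.29 in control dogs. It had 2.85, 2.80, 3.44, 2.80 and 2.82 in ad libitum dogs. Both group means lay below the floor, so no fold is given, and the dog mean lay above log2 4 in 3 of 4 control and 0 of 5 ad libitum dogs. The gonadal array of ad libitum dog 6 alone reached 4.08.

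The number of probe sets at an unadjusted p under 0.05 in the dog means moved with single dogs, from 2005 without control dog 3 to 4296 without ad libitum dog 5 and 3872 without ad libitum dog 6. No probe set passed adjustment in any of the 9 fits, with smallest adjusted p values between 0.0729 and 0.462. Without dog 5 the subcutaneous count at an unadjusted p was 6669 in place of 5085, and without dog 6 the gonadal count was 1153 in place of 531. SPPL2A stayed between 0.90 and 1.06 in these 9 fits, HMGB3 between 1.34 and 1.67, FAM20A between 1.30 and 1.75 and AADAT between -1.08 and -0.86. LOX lay between 1.96 and 2.42, and PNPLA3 between 2.93 and 3.98.

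**Figure D5:**
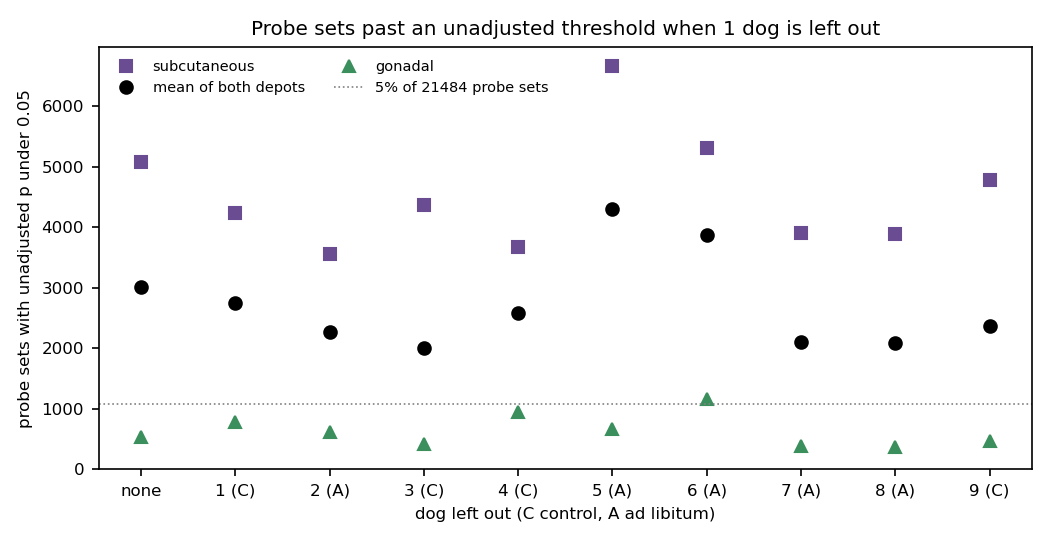
Number of probe sets with an unadjusted p under 0.05 when 1 dog (both of its arrays) is left out, for subcutaneous fat, the mean of both depots and gonadal fat, with the dotted line at 5% of 21484 probe sets. The count of the dog means is highest without dog 5 (4296) and lowest without dog 3 (2005), and lies between those of the depots in each fit.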

How the data were processed

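Expression was measured with Affymetrix canine arrays in subcutaneous and gonadal fat of 9 beagles, 1 array per dog and depot. RNA was extracted with Trizol, and biotin-labelled cRNA was made in a single cycle, per the labels. The deposited values, read here as log2, were computed by the authors with GCRMA per the submitters' processing notes. Not given in the sources used here are the log base and the version and settings of GCRMA. They range from 0.681 to 16.51, with array medians of 3.65 to 3.87, and 47.2% to 49% of probe sets per array reach log2 4. Array data hold no counts, so the number of arrays limits the precision. Scanner files were not used here.

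Per the labels, an earlier submission held the subcutaneous arrays alone, with other processed values, so depot and array batch cannot be told apart. Each dog mean holds 1 array of either kind.

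The 2 depots of each dog were averaged, and limma 3.58.1 in R 4.3.3 compared 5 ad libitum with 4 control dogs (7 residual degrees of freedom, 2.45 added by moderation), two-sided, with Benjamini-Hochberg adjustment over 21484 probe sets and a threshold of 0.05. Depot contrasts and their difference came from 1 fit to the 4 group means over 18 arrays (14 residual degrees of freedom), with no block. Errors after ± are limma standard errors unless SD is given. The same animals gave both depots, so the numbers pair the arrays, and feeding lies between dogs, so a fixed block could not be fitted. The random block used statmod 1.5.0, and gene differences without the 4 arrays came from the 18-array fit with that block.

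Platform annotation gave 1 symbol to 29254 probe sets, several to 439 and none to 13231, beside 111 array controls. The genes named are the 15 with the smallest p (since under 10 were called), up to 3 members of each of 33 lists with the smallest p, LEP, ADIPOQ, CCL2, TNF and IL6, and the genes separated in both depots (up to 10). Other list members and the genes called without a block or found in neither depot were named after their values were seen. The members and lists were chosen with earlier results of these data known. The fit was tested on simulated data. Alternatives were other filters on low values, quantile normalization and centring, trended and robust moderation, no block or a random block, each dog left out, values below log2 4 set to log2 4, the 4 arrays left out (a marker list median at least 2 above the depot median) and actin 3' minus 5' as a covariate.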

Additional observations from a re-analysis of the deposited data

Results flagged for a closer look

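In 6 of 80 groups of 4 or 5 dog means tested for the genes named, 1 dog lay far from the others by Dixon's criterion, which chance meets in about 1 in 20 groups. PTGR2 was 7.71 in ad libitum dog 8, against 7.40 to 7.47 in the other ad libitum dogs. ELOVL6 was 4.92 in control dog 4, against 3.20 to 3.39 in the other control dogs, which lay below the floor. CYP2A13, a cytochrome P450, was 4.54 in ad libitum dog 6, against 6.27 to 6.72. FAM98A was 3.55 in control dog 9, against 4.02 to 4.09. CD5L was 2.75 in control dog 3, against 4.20 to 4.36, and 3.44 in ad libitum dog 6, against 2.80 to 2.85. Dog 6 is the dog whose gonadal array carried ciliated-cell transcripts and dog 3 the one whose subcutaneous array carried muscle transcripts, and their part in these values was not tested.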

How the results depend on the processing

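The dog means called 0 probe sets under every alternative run on them, which were no filter (smallest adjusted p 0.119), a filter at log2 6 (0.124), quantile normalization (0.278), centring (0.262), trended and robust moderation (0.234), the actin covariate (0.262), the other actin 5' probe set as covariate, chosen after seeing the data (0.16), values below log2 4 set to it, also chosen after seeing the data (0.122), and 9 fits with 1 dog left out. With no replicate block, the 18-array fit called 41 for the average and 3 in neither depot, or 23 and 0 with values below log2 4 set to it. With the dog as a random replicate block it called 0 for the average (smallest adjusted p 0.055), 0 without the 4 arrays that carried transcripts of muscle or cilia (0.11), 472 in subcutaneous fat, of which 461 were among the 506 without it, so that 45 calls were lost and 11 gained there, and 0 in gonadal fat and for the difference between the depots. The cause of the loss of the 41 calls was not tested. Fitted on 9 arrays, subcutaneous fat had 60 calls in place of 506. With 1 dog left out it had 3 to 2703, and the difference between the depots 0 to 5. Gonadal fat had 0 in each of these fits, with 385 at an unadjusted p under 0.05 on its 9 arrays. Of the values of named genes under the alternatives 11 turned sign, 9 came past the threshold and 2639 did neither. Those that turned, none past the threshold, were PPBP (0.36 without the 4 arrays), RSPH9 (0.052), ALAS2 (-0.16) and CCL2 (0.11) with the actin covariate, CCL2 without dog 1 (0.14), dog 2 (0.15) or dog 9 (0.11; range with 1 dog left out -0.40 to 0.15), ALAS2 without dog 3 (-0.18) or dog 9 (-0.13; -0.18 to 0.90), ADIPOQ without dog 3 (-0.0063 to 0.36) and ROPN1L without dog 6 (-0.13 to 0.61). For lists 392 values moved by less than the spread between dogs and 4 by more. That spread was wide, with an SD of 0.56 for the adipocyte list (median 0.62) and 1.32 for skeletal muscle (median -0.57). The skeletal muscle median of 0.02 without the 4 arrays is thus among the 392, and this count does not show that the lists were stable. The actin difference of -0.44 lay between -0.677 and -0.152 with 1 dog left out and was -0.057 with the other 5' probe set. Values near log2 4 are limited by background, so the differences of ELOVL6, FAM20A, MID1, CCNE2, CD5L, CCL19 and SREBF1, among others, depend on values below it. With those set to log2 4 they were 2.66, 1.26, 0.30, -0.76, -0.35, -0.86 and 0.97.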
